A study of Mus musculus with 12 samples.

Results

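Fkbp5, Tsc22d3, Zbtb16, Sgk1, Klf9, Cebpd, Cebpb and Errfi1 are genes that glucocorticoid hormones induce in many tissues, and their RNA was followed in the hearts of mice given cisplatin with or without STING. They were chosen by symbol, and each symbol matched 1 of the 55885 genes listed in the deposited table. All 8 reached 1 TPM in 3 or more hearts, the filter on low values, and were tested among 13815 genes. TPM is a length-normalized share of all transcripts in a library. Levels of different genes can therefore be compared per length, while the depth behind each value is unknown.

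RNA-seq was performed on cardiac tissues of 12 male mice of the C57BL/6 strain by the labels (C57BL/6J by the methods), 8 weeks old at the start, with 3 hearts in each of 4 groups. The Saline and CDDP groups were wild type, and the STING-/- and STING-/-+CDDP groups carried the Tmem173-/- genotype, which disrupts the gene for the innate immune adaptor STING in every cell. The CDDP groups received 6 mg/kg cisplatin intraperitoneally on days 1, 8 and 15, and all hearts were taken on day 22, after echocardiography and under pentobarbital anesthesia. The labels call the animals without cisplatin untreated, whereas the methods describe a saline group. Wild-type and STING-/- mice came from different suppliers and are not described as littermates. Neither the hour of collection nor corticosterone was given in the sources used here.

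Glucocorticoids released by the adrenal cortex bind the glucocorticoid receptor, NR3C1, which is held in the cytosol by HSP90 and co-chaperones and then moves to the nucleus, where it binds DNA at glucocorticoid response elements. Corticosterone, the main glucocorticoid of mice, follows a daily rhythm and rises with stress, illness and fasting. Cardiomyocytes express the receptor, and the induced genes include brakes on the response itself, anti-inflammatory mediators and transcription factors of metabolism.

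In all 12 hearts cardiomyocyte markers were high, their summed TPM lying between 27010 and 53570. Several hearts stood apart. Atrial markers (6 genes) summed to 39176 TPM in Saline heart 2 against 319.5 and 344.9 in the other Saline hearts, and to between 342.0 and 14673 elsewhere. All 6 neutrophil markers were highest in CDDP heart 1, where they summed to 1096 TPM against at most 89.7 in the other hearts. Of the adrenal cortex markers, Cyp11b1 and Hsd3b1 were listed at 0 in every heart. Cyp11a1 and Cyp21a1 reached at most 0.36 and 0.18 TPM, and Star was 0.52 to 2.57 TPM. Sting1 was listed above 0 in all 6 STING-/- hearts, at 2.87 to 5.96 TPM, against 5.62 to 22.1 TPM in the wild-type hearts, and a TPM per gene does not tell a mutated transcript from an intact transcript.

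RefSeq promoter windows of GRCm38.p6, from 250 bases before to 50 bases after a start site, were found for 6 of the 8 genes, 14 windows in all, and for neither Zbtb16 nor Cebpd. The full palindromic glucocorticoid response element, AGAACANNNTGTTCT, occurred on either strand in 3 of 32851 windows (0.00913%), and 1 of these belongs to Sgk1. Its single hexamer, TGTTCT, occurred in 19.0% of all windows and in 4 of the members' 14, of Sgk1 and Tsc22d3. Below are the 250 bases before the start site of 4 members, 5′ to 3′ on the strand of the gene. They show the Sgk1 element, the hexamer of Tsc22d3, and Fkbp5 and Klf9, whose windows hold neither.
Sgk1, chr10:21993640-21993889 (+): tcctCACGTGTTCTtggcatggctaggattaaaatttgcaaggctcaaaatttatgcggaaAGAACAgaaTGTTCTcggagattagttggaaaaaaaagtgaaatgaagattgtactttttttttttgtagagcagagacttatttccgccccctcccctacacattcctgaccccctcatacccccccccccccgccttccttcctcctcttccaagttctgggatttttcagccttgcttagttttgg
Tsc22d3, chrX:140600523-140600772 (-): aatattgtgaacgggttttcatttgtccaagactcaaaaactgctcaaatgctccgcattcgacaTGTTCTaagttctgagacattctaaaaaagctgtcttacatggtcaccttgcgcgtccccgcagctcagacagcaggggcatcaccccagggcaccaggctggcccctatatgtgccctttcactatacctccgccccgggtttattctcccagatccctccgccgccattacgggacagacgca
Fkbp5, chr17:28486150-28486399 (-): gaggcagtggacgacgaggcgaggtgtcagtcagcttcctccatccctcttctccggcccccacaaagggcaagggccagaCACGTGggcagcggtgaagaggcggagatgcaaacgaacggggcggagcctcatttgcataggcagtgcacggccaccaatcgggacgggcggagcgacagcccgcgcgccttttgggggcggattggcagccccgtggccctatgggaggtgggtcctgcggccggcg
Klf9, chr19:23140976-23141225 (+): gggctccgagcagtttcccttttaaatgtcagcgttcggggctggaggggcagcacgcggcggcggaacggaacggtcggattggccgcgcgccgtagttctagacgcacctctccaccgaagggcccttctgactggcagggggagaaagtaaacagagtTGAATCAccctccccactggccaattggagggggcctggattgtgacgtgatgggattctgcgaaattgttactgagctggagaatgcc
Capitals mark, in Sgk1, the E-box CACGTG running into a hexamer TGTTCT, and then the full element with its 3 free bases in lower case, which lies at chr10:21993701-21993715 and begins 189 bases before the start site. In Tsc22d3 they mark TGTTCT, in Fkbp5 the E-box CACGTG (7.15% of all windows), and in Klf9 the AP-1 site TGANTCA (7.81% of all windows) in the form TGAATCA. A match is a description of these letters only, and receptor binding in intron or distal elements would not appear in such windows. Sgk1 has 6 windows and Tsc22d3 has 3, and a TPM per gene does not show which start site was used.

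Fkbp5 encodes the immunophilin FKBP51, a co-chaperone that lowers the hormone affinity of the receptor and is itself induced by it. The gene lies on chromosome 17 from 28399094 to 28517527 (GRCm38, minus strand), and overlaps AC154912.1 and Gm22146 on the opposite strand. With Saline its TPM was 2.76, 39.7 and 34.3, and with CDDP it was 72.1, 107.3 and 137.0. STING-/- mice without cisplatin had 42.3, 42.3 and 29.2 TPM, and those given cisplatin had 70.7, 49.4 and 37.8 TPM. No heart of the other 3 groups reached the lowest CDDP heart, and Saline heart 1 was far below all others. Fkbp5 rose with CDDP in wild-type hearts by 2.55 on the log2 scale, a 5.87-fold change in TPM + 1 (standard error 0.70, adjusted p = 0.0279 by limma). Without Saline heart 1 the rise was 1.44 and still passed (adjusted p = 0.0183 by limma), while it did not pass without CDDP heart 2 or CDDP heart 3. Group means were 105.5 ± 32.5 TPM with CDDP and 25.6 ± 19.9 TPM with Saline (SD, n = 3). The order of group means was CDDP, STING-/-+CDDP, STING-/- and Saline, and neighbouring groups overlapped except for CDDP and STING-/-+CDDP.

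Tsc22d3 encodes GILZ, a leucine zipper protein that mediates anti-inflammatory actions of glucocorticoids, and lies on chromosome X from 140539528 to 140600659 (minus strand). It had the highest TPM of the 8 genes in 11 of the 12 hearts. The values were 71.5, 204.0 and 84.9 TPM with Saline and 131.7, 172.7 and 327.1 with CDDP. In STING-/- hearts they were 137.2, 167.6 and 126.8 TPM without and 169.2, 160.3 and 107.8 TPM with cisplatin. Saline heart 2 stood above 2 of the 3 CDDP hearts, so the groups overlapped, and the log2 fold change with CDDP of 0.86 did not pass (standard error 0.39, adjusted p = 0.149 by limma). Over the 12 fits that each left out 1 heart it ran from 0.48 to 1.31 and passed in 1, that without Saline heart 2 (1.31, adjusted p = 0.0199 by limma). Without Saline heart 1 it was 0.56 (adjusted p = 0.421 by limma).

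Zbtb16 encodes PLZF, a zinc finger transcription factor strongly induced by glucocorticoids in several tissues, and lies on chromosome 9 from 48654297 to 48836222 (minus strand). Its TPM was 2.17, 27.2 and 25.2 with Saline, 25.9, 50.5 and 50.9 with CDDP, 27.6, 23.1 and 29.9 in STING-/- hearts, and 32.9, 21.9 and 23.6 in STING-/-+CDDP hearts. As for Fkbp5, Saline heart 1 was alone at the bottom, while the other Saline hearts were at the level of CDDP heart 1 and of all STING-/- hearts. The log2 fold change with CDDP, 1.65, did not pass (standard error 0.65, adjusted p = 0.10 by limma), and without Saline heart 1 it was 0.61.

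Klf9, a Krüppel-like zinc finger factor under direct receptor control, lies on chromosome 19 from 23141226 to 23168134. Its values were 21.5, 44.3 and 32.3 TPM with Saline, 38.6, 61.3 and 88.4 with CDDP, 47.4, 41.6 and 51.5 in STING-/- hearts, and 56.8, 45.6 and 34.9 in STING-/-+CDDP hearts. CDDP heart 1 lay below Saline heart 2. The log2 fold change with CDDP was 0.90 (standard error 0.31, adjusted p = 0.0630 by limma).

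Cebpd and Cebpb encode C/EBPδ and C/EBPβ, bZIP transcription factors that respond to glucocorticoids and also to interleukin-6 and other inflammatory cues. Cebpd lies on chromosome 16 from 15887286 to 15891031, and overlaps Spidr on the opposite strand. Its TPM was 7.34, 24.6 and 9.86 with Saline and 51.9, 25.1 and 59.6 with CDDP, so that the lowest CDDP heart was just above the highest Saline heart. In STING-/- hearts it was 13.6, 21.4 and 12.3 TPM without and 32.9, 25.8 and 18.8 TPM with cisplatin, and those groups overlapped. Group means in wild-type hearts were 45.5 ± 18.1 TPM with and 13.9 ± 9.31 TPM without cisplatin (SD, n = 3). Cebpd rose with CDDP by 1.72 on the log2 scale, 3.31-fold (standard error 0.42, adjusted p = 0.0168 by limma). The call was lost without Saline heart 1 (adjusted p = 0.0707 by limma), without Saline heart 3 and without CDDP heart 3.

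Cebpb lies on chromosome 2 from 167688915 to 167690418 and overlaps Tmem189 on the opposite strand. It was the lowest of the 8 genes in 11 hearts, with 3.77, 7.41 and 8.51 TPM with Saline, 13.04, 8.70 and 10.9 with CDDP, 4.4, 6.11 and 4.76 in STING-/- hearts, and 9.06, 7.24 and 6.72 in STING-/-+CDDP hearts. The hearts given cisplatin were above those without it in each genotype, with no overlap. Neither difference passed, at 0.70 in wild-type hearts (adjusted p = 0.0759 by limma) and 0.51 in STING-/- hearts (adjusted p = 0.411 by limma). The highest value was in CDDP heart 1, the heart with the most neutrophil marker RNA, and the part of these cells in it was not tested. In such bulk samples, fewer cells of a type and less RNA per cell cannot be told apart.

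Sgk1 encodes a kinase close to AKT that controls ion channels and transporters and is induced by glucocorticoids and mineralocorticoids. Its gene lies on chromosome 10 from 21882184 to 21999903, and the element printed above is in it. The Saline hearts were close together at 61.1, 63.2 and 61.8 TPM, and Saline heart 1 was not low here. The CDDP hearts had 74.3, 180.3 and 111.2 TPM, the STING-/- hearts 72.7, 57.4 and 48.2 TPM, and the STING-/-+CDDP hearts 101.6, 104.1 and 73.9 TPM. Group means were 62.0 ± 1.09 TPM with Saline and 121.9 ± 53.8 TPM with CDDP (SD, n = 3). Only STING-/-+CDDP and Saline did not overlap among groups next to each other in the order of means. Sgk1 rose with CDDP in wild-type hearts by 0.87 on the log2 scale, 1.83-fold (standard error 0.27, adjusted p = 0.0450 by limma). It was also higher without overlap in STING-/-+CDDP than in STING-/- hearts, a log2 difference of 0.64 that did not pass (adjusted p = 0.326 by limma). The call in wild-type hearts held in only 2 of 12 fits that each left out 1 heart, those without CDDP heart 1 and without STING-/-+CDDP heart 3.

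Errfi1 encodes MIG6, an inhibitor of the EGF receptor family, and lies on chromosome 4 from 150853919 to 150868892. Its TPM was 23.2, 29.2 and 19.8 with Saline, 25.9, 40.5 and 44.4 with CDDP, 31.0, 32.0 and 22.5 in STING-/- hearts, and 29.1, 33.7 and 17.4 in STING-/-+CDDP hearts. All 4 groups overlapped, and the log2 fold change with CDDP was 0.58 (standard error 0.27, adjusted p = 0.156 by limma). The antisense gene 1700045H11Rik overlaps it, and whether the counting used strand is not given in the sources used here.

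**Figure D1:**
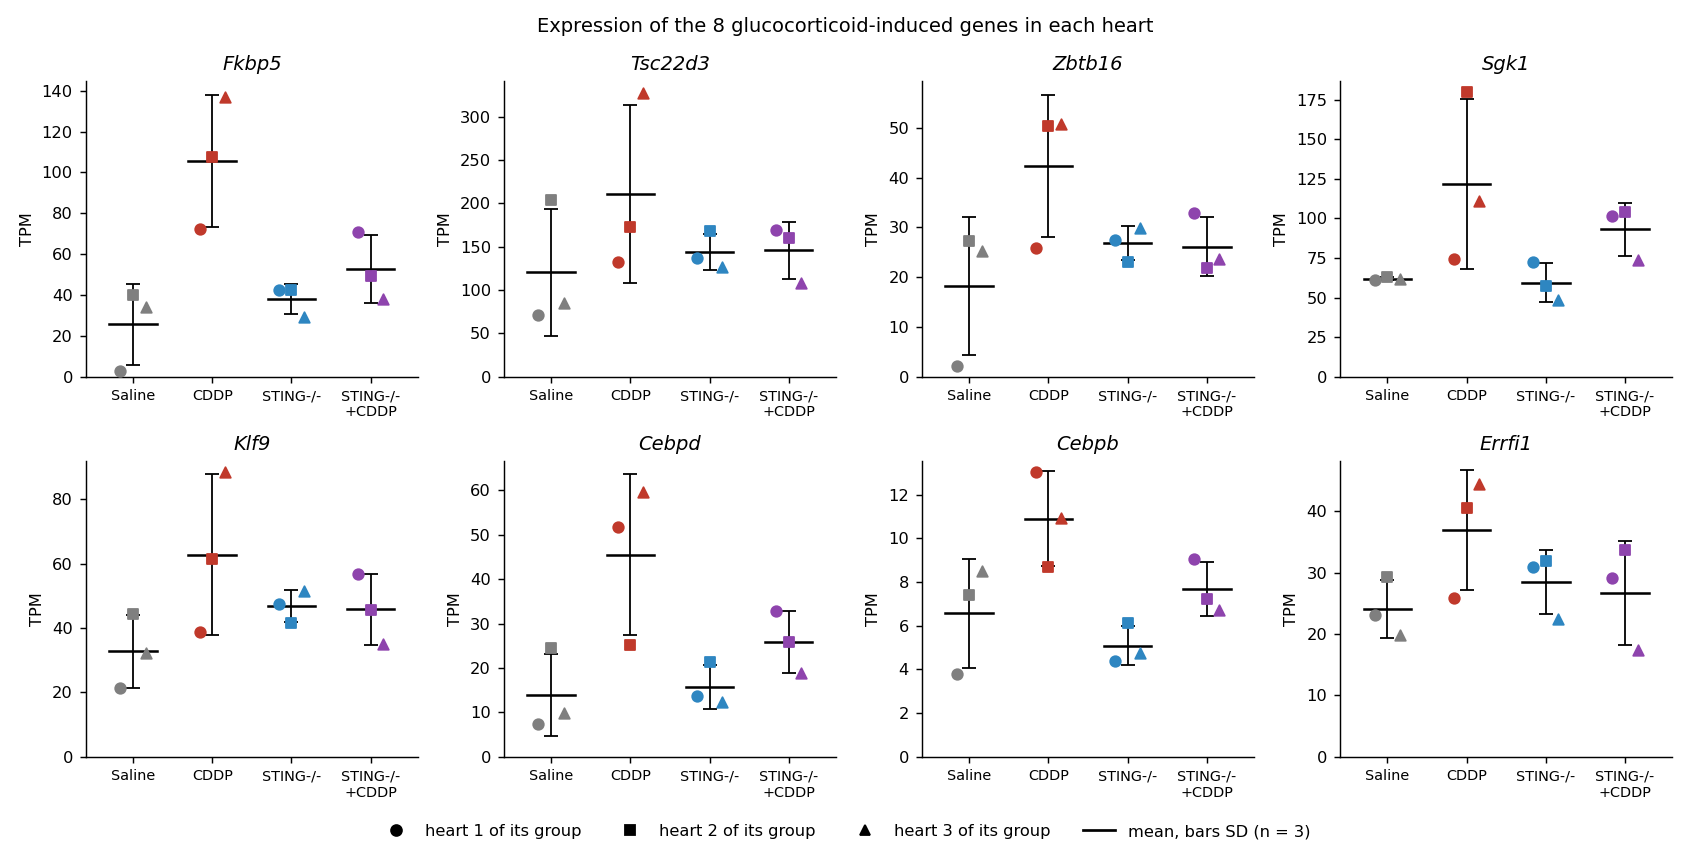
TPM of the 8 genes (1 panel each, linear axes from 0) in the 3 hearts of each group, with symbols for the heart number, black lines for group means and bars for SD. The CDDP mean is the highest of the 4 in every panel, and Saline heart 1 is near 0 for Fkbp5 (2.76) and Zbtb16 (2.17).

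The first comparison asks how cisplatin changed these genes in wild-type hearts. Fkbp5, Cebpd and Sgk1 rose with CDDP, 3 of the 8, and the other 5 had log2 fold changes of 0.58 to 1.65 that did not pass. All 8 differences were above 0, as were 49.8% of all genes tested, and 6 of the 8 had an unadjusted p under 0.05, as did 33.9% of all genes. The median over the 8 was 0.89, beside -0.00 over all genes tested, of which 8.52% were called higher and 18.9% were called in either direction. For 4 genes, Fkbp5, Cebpd, Sgk1 and Cebpb, all CDDP hearts were above all Saline hearts, as for 14.9% of all genes tested. Without Saline heart 1 only Fkbp5 passed and the median was 0.63, while all 8 differences stayed above 0. Leaving out CDDP heart 3, the highest heart for 6 of the 8 and for 27.9% of all genes tested, left 0 passing, and leaving out Saline heart 2, the highest Saline heart for 7 of the 8, gave 5, with Tsc22d3, Zbtb16 and Klf9 added and Sgk1 lost. Fitted on the 6 wild-type hearts alone, 0 of the 8 passed, and weighting the hearts by their quality with arrayWeights gave 6.

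Cisplatin in STING-/- hearts was compared next. None of the 8 passed by limma, with 0.934% of all genes tested called, and 1 (Sgk1) had an unadjusted p under 0.05, as 13.5% of all genes did. Sgk1 and Cebpb were higher in every STING-/-+CDDP heart than in any STING-/- heart, as were 7.28% of all genes. The log2 differences of the other genes were 0.68 for Cebpd (95% interval -0.24 to 1.61), 0.43 for Fkbp5 (-1.11 to 1.98), 0.00 for Tsc22d3, -0.05 for Zbtb16, -0.05 for Klf9 and -0.12 for Errfi1. The sign turned for Zbtb16, Klf9 and Errfi1 under median-of-ratios scaling, and for Zbtb16 and Klf9 under quantile normalization. These scalings moved the median of all genes in this comparison by 0.115 and 0.122. Scaling without mitochondrial genes moved it by 0.013 and turned no sign.

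Whether STING changed the levels under cisplatin was asked of STING-/-+CDDP against CDDP hearts. The CDDP hearts enter this comparison and that with Saline, so a chance deviation of these hearts would appear in both with opposite sign. None of the 8 passed by limma, with 1.22% of all genes tested called, and 0 had an unadjusted p under 0.05, as 19.8% of all genes did. All 8 log2 differences were below 0, as were 60.4% of all genes. The median was -0.46 over the 8 and -0.09 over all genes. Fkbp5 was lower without overlap, as were 15.6% of all genes, at 0.99 below on the log2 scale with a 95% interval of -2.53 to 0.55. Intervals were narrower for Sgk1, -0.31 (-0.90 to 0.29), which was 0.02 without CDDP heart 2, and for Klf9, -0.40 (-1.07 to 0.28).

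Between STING-/- and Saline hearts 0 of the 8 passed by limma and 0 had an unadjusted p under 0.05, beside 0.0724% and 3.69% of all genes. The differences of Fkbp5, 1.13 (95% interval -0.41 to 2.67), and Zbtb16, 1.06 (-0.37 to 2.49), rest on Saline heart 1. In the test of the difference between the genotypes in their change with cisplatin, the interaction, 0 of the 8 passed by limma and 0 had an unadjusted p under 0.05. Of all genes, 0.00724% passed and 11.7% had such a p. All 8 estimates were below 0, as were 59.8% of all genes, and the median was -0.90 over the 8 and -0.10 over all genes. Without Saline heart 1 the median was -0.67 and Cebpb was above 0. The estimates ran from -0.19 for Cebpb (95% interval -0.97 to 0.60) to -2.12 for Fkbp5 (-4.30 to 0.06).

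**Figure D2:**
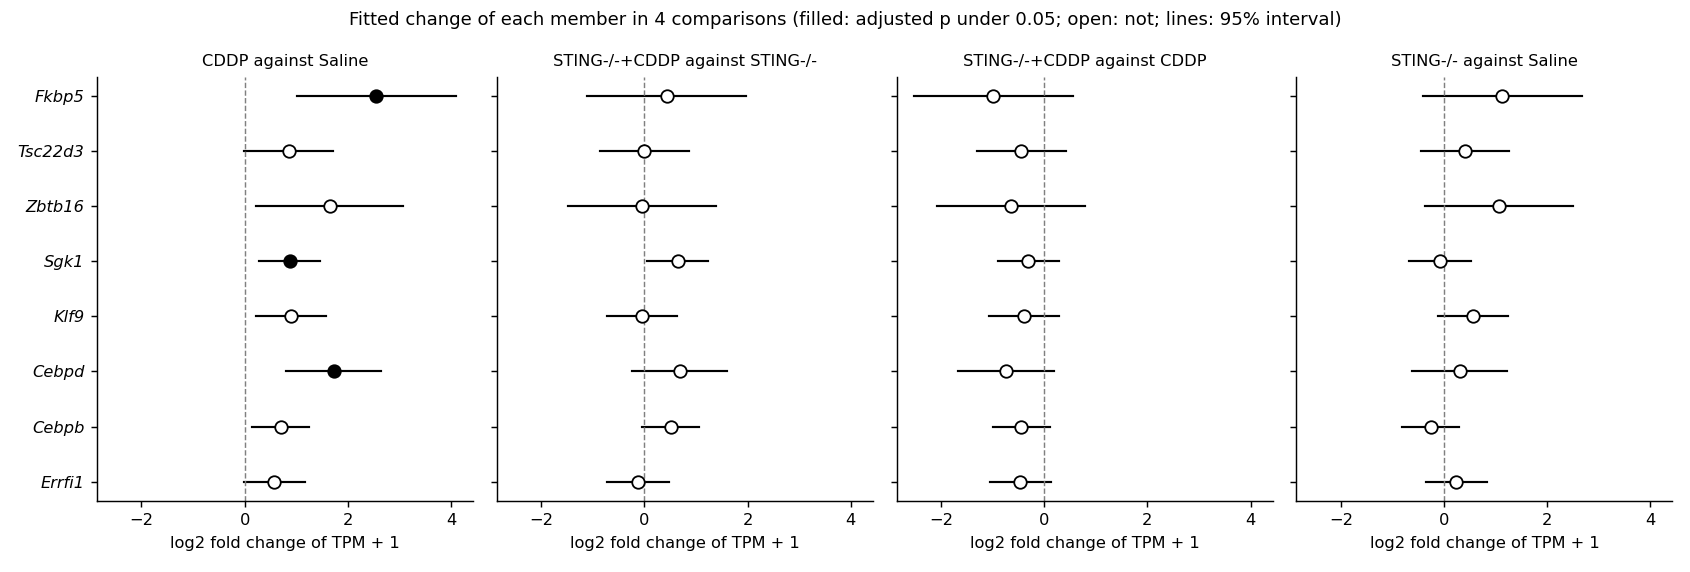
Fitted log2 fold change of TPM + 1 for the 8 genes in 4 comparisons, with lines for the 95% interval, filled points for an adjusted p under 0.05 and open points otherwise. Fkbp5, Sgk1 and Cebpd are filled in the CDDP against Saline panel, and no point is filled in the other 3.

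Saline heart 1 was the lowest of the 12 hearts for 6 of the 8 genes, all except Sgk1 and Errfi1, and the lowest for 7.41% of all genes tested. Fkbp5 was 10.6-fold and Zbtb16 10.1-fold lower there than in the lowest of the other 11 hearts. A gap of at least 10-fold was seen for 0.232% of all genes tested. Among genes with at least 10 TPM in each of the other 11 hearts it was seen for Fkbp5, Zbtb16 and the predicted gene Gm48583, which was listed at 0 in that heart. Of 31 other glucocorticoid-induced genes tested, 16 were also lowest in this heart. So were 7 of 15 cytokine and acute-phase genes and 5 of 15 genes of FOXO signalling and fasting, some of them on several lists. Counts were lower for immediate-early genes (3 of 19), genes related to the members (3 of 28) and genes of receptor and ligand handling (2 of 17).

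The same heart stood apart in the circadian clock, the feedback loop in which BMAL1 (Arntl) and its partners drive the Per and Cry repressors, and which sets daily expression in the heart. These clock genes are named after their values were seen. Arntl was 13.04 TPM in Saline heart 1 and 1.46 to 8.28 TPM in the others, and its partner Npas2 was 3.33 against 0.33 to 1.80. Per2 was 0.71 TPM there and 4.95 to 12.5 TPM in the others. In all, 7 of 19 clock genes tested were lowest and 2 highest in this heart, which was highest for 10.7% of all genes. Dbp, a clock output gene, was 95.8 to 115.1 TPM in the STING-/- hearts and 81.1 in Saline heart 2, and 10.2 to 43.3 TPM in the other 8 hearts. Clock genes thus differed within and between groups, and their part in the members' values was not tested.

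**Figure D3:**
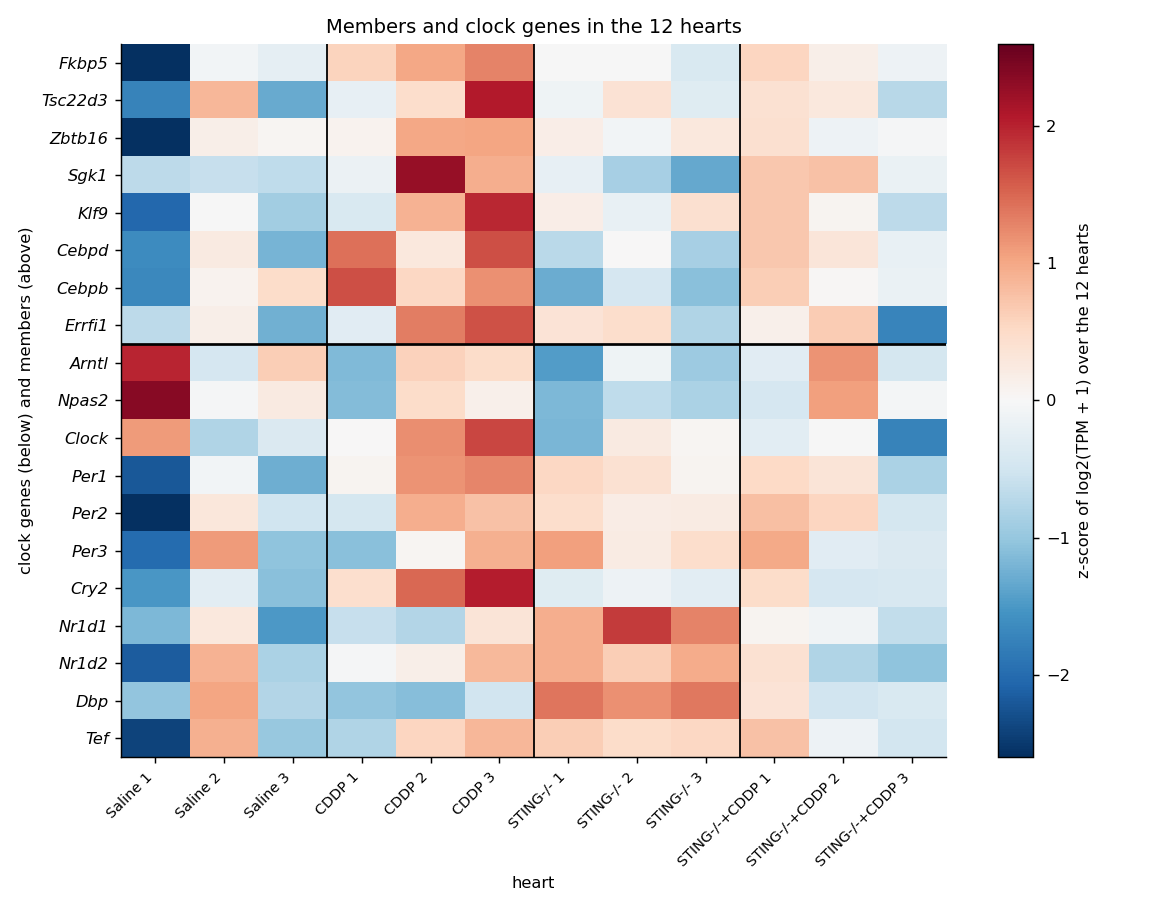
Members (above the line) and clock genes (below) in the 12 hearts, coloured by the z-score of log2(TPM + 1) over the hearts. Saline heart 1 is blue for most members and for Per1, Per2, Nr1d2 and Tef and red for Arntl and Npas2.

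The receptors and the handling of their ligand came next. Hsd11b1 encodes the enzyme that regenerates active glucocorticoid inside cells from its inert 11-keto form. The gene overlaps Lamb3 and 4930570N18Rik on the opposite strand. Its TPM was 17.1, 15.7 and 25.5 with Saline, 105.5, 95.9 and 82.3 with CDDP, 22.2, 17.1 and 14.0 in STING-/- hearts, and 57.3, 49.5 and 53.1 in STING-/-+CDDP hearts. The 6 hearts given cisplatin were all above the 6 others, and CDDP hearts were all above STING-/-+CDDP hearts. Hsd11b1 rose by 2.25 on the log2 scale in wild-type hearts (standard error 0.20, adjusted p = 0.000226 by limma) and by 1.55 in STING-/- hearts (adjusted p = 0.00753 by limma). Both rises passed in each of the 12 fits that left out 1 heart. The difference between STING-/-+CDDP and CDDP hearts, -0.81, did not pass (adjusted p = 0.0725 by limma), nor did the interaction of -0.69 (adjusted p = 0.391 by limma).

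Fkbp4 encodes FKBP52, the co-chaperone that favours hormone binding and nuclear transport of the receptor, the counterpart of FKBP51. It was 211.1, 174.9 and 171.8 TPM with Saline and 54.1, 79.8 and 77.8 TPM with CDDP. In STING-/- hearts it was 161.7, 170.3 and 211.2 TPM without and 115.6, 139.0 and 105.7 TPM with cisplatin, so that the STING-/-+CDDP hearts lay between the CDDP hearts and all hearts without cisplatin. The fall in wild-type hearts was -1.40 (standard error 0.18, adjusted p = 0.000934 by limma) and passed in every fit that left out 1 heart. The difference in STING-/- hearts, -0.59, did not pass (adjusted p = 0.158 by limma). The difference of STING-/-+CDDP from CDDP hearts, 0.77, did not pass either (adjusted p = 0.0574 by limma), while it passed in 4 of 10 other settings and in 1 of the 12 fits that each left out 1 heart.

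The glucocorticoid receptor gene Nr3c1 was 18.3, 15.7 and 12.1 TPM with Saline, 9.60, 10.1 and 13.4 with CDDP, 14.6, 13.3 and 14.2 in STING-/- hearts, and 12.8, 12.1 and 8.38 in STING-/-+CDDP hearts. These groups overlapped in wild-type hearts, and the difference of -0.44 did not pass (adjusted p = 0.144 by limma). The mineralocorticoid receptor gene Nr3c2, which also binds corticosterone, was lower in level, with 1.36 to 6.50 TPM, and differed by -0.56 (adjusted p = 0.185 by limma). Hsd11b2, whose enzyme inactivates the hormone, was at most 0.15 TPM in any heart, below the filter for limma. A two-sided exact permutation test of CDDP against Saline gave p = 0.5, and the smallest p that 3 against 3 hearts allow is 0.1. Of 17 genes of receptor and ligand handling tested, 3 were higher with CDDP in wild-type hearts, Hsd11b1 and the chaperones Hspa8 (0.51) and Hsp90ab1 (0.48), and 1 was lower, Fkbp4, beside 18.9% of all genes tested called in either direction. The median of the 17 was 0.21. Hspa8 passed in 6 and Hsp90ab1 in 2 of the 12 fits that each left out 1 heart, and neither passed without Saline heart 1. Both calls were also lost in 5 of 10 other settings, such as no filter on low values.

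**Figure D4:**
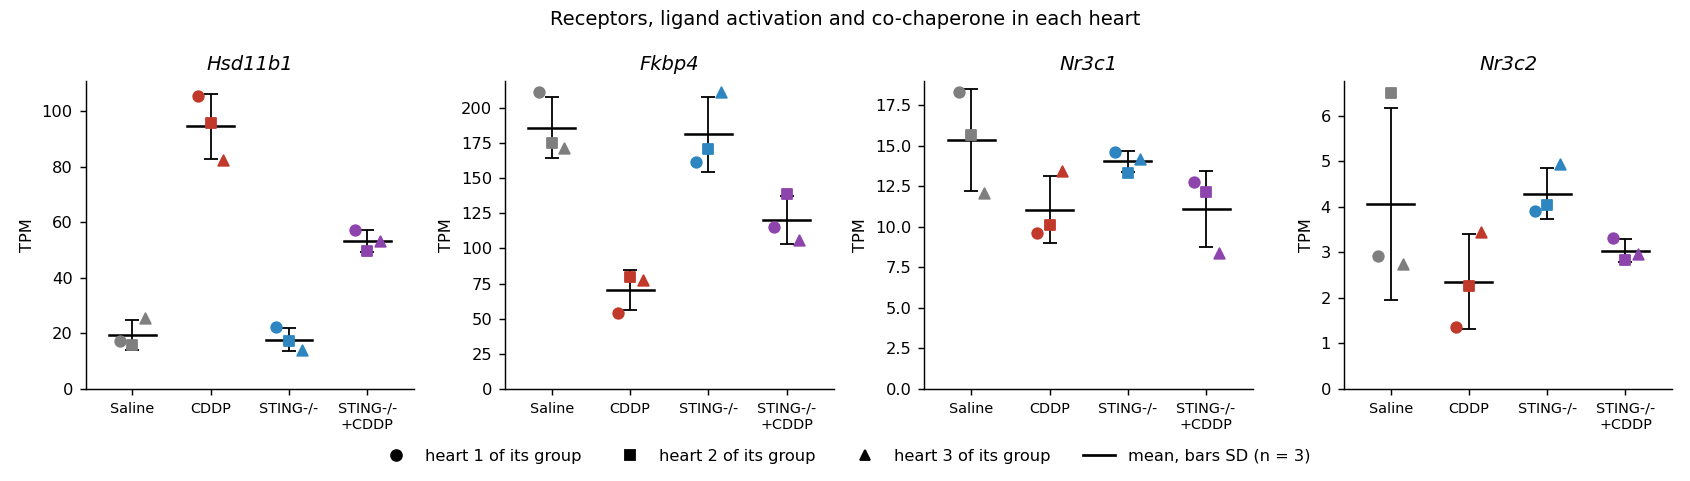
TPM of Hsd11b1, Fkbp4, Nr3c1 and Nr3c2 in the 12 hearts (linear axes from 0, symbols for heart number, lines for means, bars for SD). Hsd11b1 is 82.3 to 105.5 with CDDP against 15.7 to 25.5 with Saline, and Fkbp4 is 54.1 to 79.8 against 171.8 to 211.1.

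A list of 32 other genes that glucocorticoids induce held 31 tested genes. Of these, 11 rose with CDDP in wild-type hearts, 0 fell and 20 did not pass, beside 8.52% of all genes tested called higher. The median was 0.82. Among the genes that passed, the largest rises without overlap were those of Lcn2, an iron-binding acute-phase protein (5.45, adjusted p = 0.00215 by limma), of the metallothioneins Mt2 (3.89, adjusted p = 0.00803 by limma) and Mt1 (2.96, adjusted p = 0.00179 by limma), and of Rasd1, a dexamethasone-induced RAS-like protein. Rasd1 was 3.81, 4.74 and 1.4 TPM with Saline and 18.3, 19.8 and 27.3 TPM with CDDP, a rise of 2.47 (adjusted p = 0.00130 by limma), and it was 3.87 to 10.8 TPM in all STING-/- hearts. The other 7 were the cell cycle inhibitor Cdkn1a, the muscle ubiquitin ligase Fbxo32, glutamine synthetase Glul, Gadd45b, the NF-kB inhibitor Nfkbia, Arl4d and the clock gene Per1. The calls of Gadd45b, Arl4d and Per1 were each lost in 4 of 12 fits that left out 1 heart, those without Saline heart 1, Saline heart 3 or CDDP heart 3 among them. Several have other inducers too, such as p53 for Cdkn1a and metals for Mt1 and Mt2. The 20 others included Klf15 and Pdk4, at 0.98 and 0.68, named after their values were seen.

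Without Saline heart 1, 8 of these 31 were called higher, beside 534 of all 13701 genes then tested, and the median was 0.64. In STING-/- hearts 1 of the 31 passed, beside 0.934% of all genes in either direction. This was Cdkn1a, at 42.3, 63.3 and 46.3 TPM without and 171.5, 215.5 and 124.3 TPM with cisplatin (1.72, adjusted p = 0.0156 by limma). That call was lost in 4 of 12 fits that each left out 1 heart, those without STING-/- heart 1 or 3 or STING-/-+CDDP heart 1 or 2. In none of STING-/-+CDDP against CDDP, STING-/- against Saline and the interaction did any of the 31 pass.

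**Figure D5:**
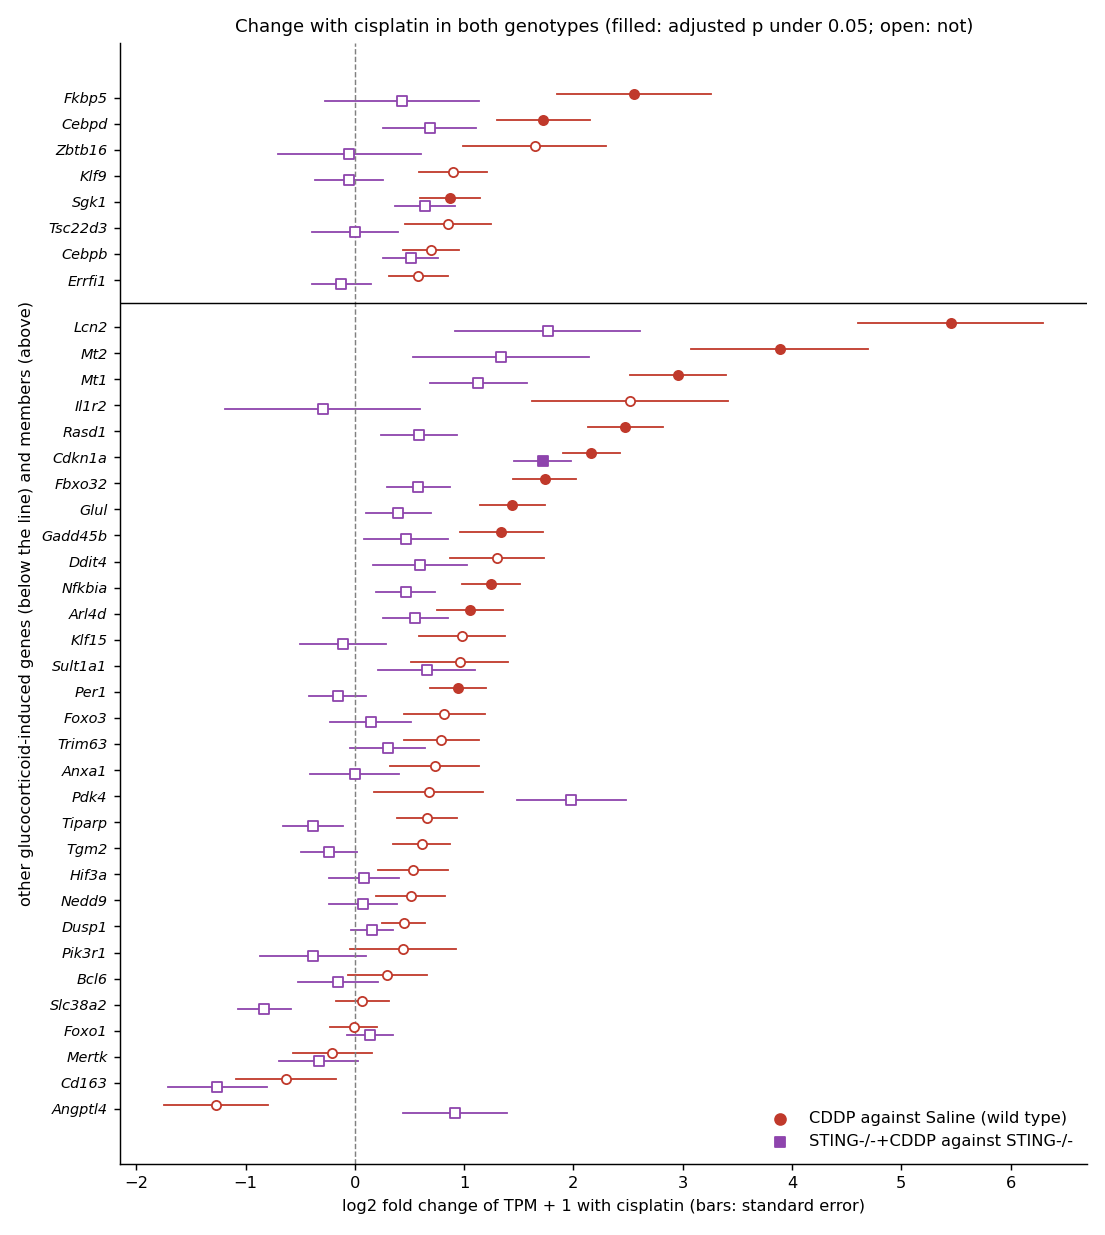
Log2 fold change of TPM + 1 with cisplatin, with bars for the standard error, in wild-type hearts (red circles) and in STING-/- hearts (purple squares) for 31 other glucocorticoid-induced genes and the 8 members. Filled symbols have an adjusted p under 0.05, which holds for 11 of 31 and 3 of 8 genes in wild-type hearts and for Cdkn1a alone in STING-/- hearts.

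Genes related to the 8, which are not known as a group for induction by glucocorticoids, were counted beside them. Most are from the same families, while Egfr, Erbb2, Erbb3, Erbb4 and Nedd4l are not. Klf15 is also on the list of other glucocorticoid-induced genes. Of 28 tested, such as the other Fkbp, Tsc22d, Sgk and Cebp genes, 0 were higher and 1, Fkbp4, was lower with CDDP in wild-type hearts, and their median was -0.08. Genes that respond to other signals known to act on members of the list were also counted, and are read beside the 8.52% of all genes tested called higher. Of 15 cytokine and acute-phase genes 10 rose with CDDP in wild-type hearts (median 1.30), led by Saa3, and of 19 immediate-early genes 11 rose (median 1.16), led by Junb. CDDP heart 1, with the most neutrophil marker RNA, was the highest heart for 8 of the 15 and 11 of the 19. Saline heart 1 was the lowest heart for 7 of the 15 and 3 of the 19. Counts with a heart left out are not given here for either list. Of 15 genes of FOXO signalling and fasting 3 rose, among them Irs2 and Fbxo32 (median 0.30), and of 19 clock genes 3 rose, among them Cry2 and Per1 (median 0.38). Some genes are on several lists, such as Lcn2, Per1 and Fbxo32. Which signal moved the members was not tested.

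In STING-/-+CDDP against CDDP hearts, 4 of 19 immediate-early genes were lower, Nr4a1, Egr1, Btg2 and Fosl2, and so was Irs2. Of the cytokine, clock and glucocorticoid lists 0 passed, beside 1.22% of all genes tested called in either direction. Nr4a1, an orphan nuclear receptor, was 60.9, 31.9 and 74.2 TPM with CDDP and 8.03, 8.78 and 7.68 TPM in STING-/-+CDDP hearts (-2.55, adjusted p = 0.0216 by limma).

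Over the 12 hearts, the genes most like the mean of the members' z-scores were Serinc3 (Pearson's r 0.97), Galnt15 (0.97), Brpf3 (0.96), Slc43a1 (0.96) and Ahctf1 (0.95). These are descriptions over hearts that share groups and library composition. Without Saline heart 1 and CDDP heart 3, the extremes of the members' mean, r was 0.93, 0.93, 0.92, 0.94 and 0.84. Serinc3, a membrane protein of the serine incorporator family, was 137.1, 300.3 and 232.6 TPM with Saline and 397.8, 406.7 and 470.2 TPM with CDDP. It was lowest in Saline heart 1, where the members' mean is lowest, and choosing genes by correlation with that mean favours this.

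The RNA of cell type markers differed between hearts too. Saline heart 2, with atrial markers at 39176 TPM, was the highest Saline heart for Tsc22d3, Klf9, Cebpd and Errfi1 as well as for Fkbp5, Zbtb16 and Sgk1. Fat markers (7 listed, 5 tested) summed to 2.90, 91.7 and 0.350 TPM in the Saline hearts, 9.53, 53.9 and 136.2 TPM in the CDDP hearts, 52.5 to 167.3 TPM in STING-/- hearts and 45.2 to 61.2 TPM in STING-/-+CDDP hearts. Saline heart 2 and CDDP heart 3, the highest of their groups in fat markers, were also the highest of their groups for 6 of the 8 genes, all except Sgk1 and Cebpb. In the STING-/- group the heart highest in fat markers, heart 2, was the lowest for Klf9 and Zbtb16 and the highest for 5 others, all except Sgk1. In the STING-/-+CDDP group heart 1 was the lowest in fat markers, and the highest for Fkbp5, Tsc22d3, Zbtb16, Klf9, Cebpd and Cebpb. Within groups, atrial markers were highest in Saline heart 2, CDDP heart 3 (14673 TPM), STING-/- heart 2 (12877 TPM) and STING-/-+CDDP heart 1 (9054 TPM). Each of these hearts was also the highest of its group for most members. Each also had the largest median-of-ratios scaling factor of its group, so values of a typical gene tended to be higher there too. CDDP heart 3 was the highest heart for 27.9% of all genes tested. Whether members were highest in these hearts more often than other genes was not tested. With CDDP in wild-type hearts all 5 red blood cell markers fell (median -4.87), and so did 4 of 6 macrophage, 3 of 5 endothelial and 2 of 5 fibroblast markers (Col3a1, -3.85, and Col1a1, -2.36). Of 8 cardiomyocyte markers Actc1 fell (-3.55) and Tnnt2 rose (0.56), and of 3 skeletal muscle markers tested Ckm fell (-0.56). In the same comparison 0 of the neutrophil, atrial and fat markers passed by limma. Between genotypes the macrophage marker Lyz2 was higher in STING-/- than in Saline hearts (7.81, adjusted p = 0.0290 by limma). It was also higher in STING-/-+CDDP than in CDDP hearts (5.27, adjusted p = 0.0460 by limma). Lyz2 was 175.6 to 706.5 TPM in STING-/- hearts, 83.5 TPM in CDDP heart 3 and 0.95 to 2.45 TPM in the other wild-type hearts. No other macrophage marker passed there without overlap. The part of these cells and tissues in the members' levels was not tested.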

How the data were processed

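Cardiac RNA of 12 mice was sequenced, 1 library a heart. The authors deposited TPM per gene. The submitters' processing notes name fastp, HISAT, RSEM and GRCm38.p5, and versions and the strand setting are not given in the sources used here. TPM keeps no depth (every heart has the same sum), so no counting interval could be given. Groups were taken from the labels.

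A gene was kept where 3 or more hearts reached 1 TPM. Log2(TPM + 1) was fitted in 1 model of 4 groups over all 12 hearts with limma 3.58.1 (eBayes with trend, R 4.3.3), and p-values were adjusted by the Benjamini-Hochberg method over all 13815 genes, with calls at an adjusted p under 0.05. Fold changes are on the log2(TPM + 1) scale, which understates changes of low genes. P-values set each difference against the spread between hearts within groups, which was pooled over the 4 groups and moderated across genes. The script was tested on simulated data.

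The members and lists (receptor and ligand handling, other glucocorticoid-induced genes, relatives, clock, cytokine and acute-phase, immediate-early, FOXO and fasting, cell markers) were chosen with earlier results of these data known. Named besides the members are Hsd11b1, Hsd11b2, Nr3c1, Nr3c2 and Sting1, of each list up to 4 called genes with the largest changes and no overlap between groups, and the 5 genes most like the members. Further called genes are named only to identify a count, a choice made with their values in view. Some genes of these lists are not reported here by name. Gene positions are from GENCODE M21. Alternatives were other pseudocounts, filters, scalings and weights, other samples in the fit, a replicate block and each heart left out.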

Additional observations from a re-analysis of the deposited data

How the results depend on the processing

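With CDDP against Saline, 3 of the 8 genes passed. The count was 1 (Cebpd) with no filter on low values, 5 after median-of-ratios scaling, 6 with arrayWeights, 0 with only the groups compared in the fit, 2 with no trend, and 3 or 4 with the pseudocount of 0.1, a TPM of at least 5, no mitochondrial genes or quantile normalization. Leaving out 1 heart gave 0 to 5: 0 without CDDP heart 3, 1 without Saline heart 1 or 3 or CDDP heart 2, and 5 without Saline heart 2. In the other 4 comparisons the count was 0 under all alternatives run. The replicate block gave 2 (Fkbp5 and Cebpd, with Sgk1 at an adjusted p of 0.0527 by limma). Same-numbered hearts correlated at -0.33 to 0.26 and hearts of other numbers at -0.31 to 0.43, so no pairing by number was seen. Such correlations cannot exclude a batch or order shared by number. In STING-/-+CDDP against STING-/-, signs turned for Zbtb16 (0.083 after median of ratios, 0.057 after quantile normalization), Klf9 (0.082, 0.013, and 0.038 with arrayWeights) and Errfi1 (0.0087 after median of ratios, 0.049 with arrayWeights). Signs also turned when 1 heart was left out, in that comparison for Errfi1 (-0.31 to 0.15), Klf9 (-0.22 to 0.12), Tsc22d3 (-0.12 to 0.20) and Zbtb16 (-0.22 to 0.062). They turned for Cebpd (-0.031 to 0.78) and Sgk1 (-0.23 to 0.058) in STING-/- against Saline, for Sgk1 (-0.61 to 0.019) in STING-/-+CDDP against CDDP, and for Cebpb (-0.38 to 0.12) and Sgk1 (-0.53 to 0.10) in the interaction. The cause was not tested. With 3 hearts a group and unknown depth, small changes of these genes could not be detected.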
